A study of Homo sapiens with 6 samples.

Results

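The 8 human integrin beta subunit genes, ITGB1 to ITGB8, were followed together with ITGA4 and ITGAE, which encode the alpha subunits known to pair with integrin beta 7, in SW620 cells after knockdown of SOWAHA. The 10 genes were taken by gene name from a count table of 39554 genes. The family was chosen by the CPM and fold change of ITGB7, which fell in this same contrast, so its values between groups are given as a description with no test. The other 9 genes were taken by family name or as alpha partners of beta 7, and their tests stand in a fit across all genes. Earlier results of these data were known when the members and tests were chosen.

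SW620 is an established human colorectal cancer cell line. Cells were transfected with DharmaFECT1 and either a negative control siRNA (siNC, 3 libraries) or an siRNA against SOWAHA (siSOWAHA, 3 libraries), and RNA was taken 72 h later. Both groups are therefore the same line exposed to the same reagent, and an untransfected group was not analysed here. The treatment label reads knock-down for all 6 libraries, so the groups were taken from the sample titles. Whether replicates were transfected separately, and whether more than 1 siRNA against SOWAHA was used, is not in the labels. A p-value here therefore reflects only how these 6 libraries vary, and that variation may be technical.

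Integrins are cell surface receptors made of 1 alpha and 1 beta subunit that bind extracellular matrix or counter-receptors on other cells and connect them to the actin or keratin cytoskeleton. Each beta subunit has its own set of alpha partners: beta 1 pairs with many, beta 4 with alpha 6 in the hemidesmosomes of epithelia, and beta 5, beta 6 and beta 8 with alpha v. Beta 7 is known mainly from lymphocytes of the gut, where alpha 4 beta 7 binds MAdCAM-1 on vessels and alpha E beta 7 binds E-cadherin on epithelial cells.

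Promoter windows are shown for ITGB7, by which the family was chosen, and for ITGB8, the only member that rose. The 2 genes moved in opposite directions. Each window runs from 250 bases before to 50 bases from the RefSeq start (GRCh38.p14), is written 5′ to 3′ on the gene's strand, and has its CG dinucleotides in capitals. The ITGB7 window lies at chr12:53207202-53207501 on the minus strand and the ITGB8 window at chr7:20330650-20330949 on the plus strand. In the coordinates of the authors' table, ITGB8 begins at 20329819, so its whole window lies inside the gene. There ITGB7 ends at 53207375, which falls within its window. Both windows may thus miss the start behind the counted transcripts, and which start the cells used was not tested.
ITGB7: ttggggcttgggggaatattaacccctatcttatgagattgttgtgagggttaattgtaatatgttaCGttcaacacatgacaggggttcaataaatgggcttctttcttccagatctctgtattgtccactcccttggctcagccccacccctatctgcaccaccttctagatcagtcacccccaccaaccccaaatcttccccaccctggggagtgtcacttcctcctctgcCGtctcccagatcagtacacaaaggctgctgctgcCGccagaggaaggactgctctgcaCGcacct
ITGB8: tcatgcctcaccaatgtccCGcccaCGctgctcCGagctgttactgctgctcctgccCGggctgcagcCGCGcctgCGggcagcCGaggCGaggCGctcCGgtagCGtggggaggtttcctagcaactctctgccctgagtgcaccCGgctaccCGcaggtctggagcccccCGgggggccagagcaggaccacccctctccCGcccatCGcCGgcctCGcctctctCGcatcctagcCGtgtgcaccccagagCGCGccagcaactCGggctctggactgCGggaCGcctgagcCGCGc
The ITGB7 window held 4 CG dinucleotides and 51.7% G or C, against medians of 14 and 58.7% over 35116 RefSeq windows of the same length, while the ITGB8 window held 28 and 71.7%. Both strands were searched for the TATA box (TATAAA, in 11.5% of all windows), the CCAAT box (letters CCAAT, in 34.6%), the GC box (GGGCGG, in 45.0%), the AP-1 site (TGACTCA, in 4.95%) and the E box (CACGTG, in 7.26%). None of these letters is in the ITGB7 window. The ITGB8 window has 1 CCAAT box at position -240 from the start, on the gene's strand, and GC boxes on the other strand at positions -232 and -49. No match overlaps another. A match or its lack says nothing here about binding of a factor. Windows were found for 7 of the 10 genes, with more than 1 start for ITGB1 and ITGB5. The windows of ITGB1, which fell, held 39 and 4 CG dinucleotides, and those of ITGB5, which also fell, 11, 27 and 32. Whether CG content goes with the direction of change was not tested.

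Libraries held 49937395 to 59474396 counts, and levels below are CPM, the count divided by the library's size in units of 1e6 counts, with edgeR's TMM factors unless FPKM, which also divides by transcript length, is named. SOWAHA itself went from 35.2 ± 3.72 CPM in siNC to 7.78 ± 1.08 CPM in siSOWAHA (SD, n = 3 each), a log2 fold change of -2.18 (SE 0.11), with no overlap between groups. Of 17693 genes tested with edgeR's quasi-likelihood test at a Benjamini-Hochberg adjusted p of 0.05, 2988 were called (16.9%): 1614 were higher in siSOWAHA (9.12%) and 1374 lower (7.77%). The log2 fold change of the median gene was -0.0078. Of the 13 colorectal epithelial markers, the general epithelial gene EPCAM was at 398 ± 5.54 and 398 ± 2.15 CPM in siNC and siSOWAHA (SD, n = 3) and VIL1, the villin of the brush border, at 445 ± 4.63 and 428 ± 8.56 CPM. Of the intestinal transcription factor genes, CDX1 was at 0 in all libraries. CDX2 was expressed, with means of 33.3 CPM in siNC and 24.6 CPM in siSOWAHA. GPA33 was at 0.44 and 0.41 CPM and CEACAM5 at 1.40 and 1.28 CPM, and 2 markers were not analysed here. The summed level of the epithelial markers was 9524 to 9828 CPM in siNC and 8883 to 8993 CPM in siSOWAHA. Most of this sum was KRT8, at 5231 ± 60.7 and 4805 ± 46.7 CPM. Of the 10 tested, 5 were lower and 0 higher (50.0% called, against 16.9% of all tested genes). Among the lower were KRT19 and KRT8, keratins of simple epithelia, CDH17, an intestinal cadherin, and CDX2 (log2 fold changes -0.30, -0.12, -0.59 and -0.44). The fibroblast markers, most of which was the proteoglycan gene LUM, summed to 70.1 to 77.0 and 80.0 to 93.1 CPM with 1 of 5 tested higher, and the endothelial markers to 1.95 to 2.80 and 1.61 to 3.16 CPM with 0 of 2 called. The part of these shifts in the results on integrins was not tested. Differences in expression level between the markers and all tested genes were not taken into account in these shares of called genes.

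ITGB7 (Entrez 3695, chr12:53191318-53207375, minus strand in the GRCh38 coordinates of the authors' table) fell to 41.3% of its siNC level. It was counted 642, 932 and 785 times in the 3 siNC libraries and 272, 373 and 246 times in the 3 siSOWAHA libraries. These counts correspond to 12.0, 15.7 and 13.3 CPM and to 5.44, 6.87 and 4.61 CPM. The lowest siNC library thus stood above the highest siSOWAHA library, while the siNC libraries differed among themselves by more than 3 CPM. The mean was 13.7 ± 1.85 CPM in siNC and 5.64 ± 1.14 CPM in siSOWAHA (SD, n = 3 each), a log2 fold change of -1.28 (SE 0.15). Per length, ITGB7 was at 4.18 ± 0.56 FPKM in siNC and 1.70 ± 0.34 FPKM in siSOWAHA. In such bulk RNA, fewer cells carrying a transcript and less of it per cell cannot be told apart.

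Several defining lymphocyte genes were at 0. PTPRC, the pan-leukocyte phosphatase CD45, was at 0 counts in all 6 libraries, as were the T cell genes CD3D, CD3E and CD2 and the B cell gene MS4A1. Others had low counts: CD8A, of cytotoxic T cells, 41 to 53 per library, NKG7, of cytotoxic lymphocytes, 8 to 18, and CD79A, of B cells, 0 to 20. The 15 leukocyte markers summed to 59.4 to 63.2 CPM in siNC and 51.0 to 59.6 CPM in siSOWAHA; most of this came from CD4, which fell from 29.4 ± 0.87 to 23.6 ± 1.88 CPM (SD, n = 3; log2 fold change -0.32, SE 0.073, edgeR adjusted p = 0.00754), and from CORO1A, an actin-binding coronin, at 20.8 and 23.5 CPM. Of the 8 leukocyte markers tested, 2 were lower, CD4 and the lysosomal protein gene LAPTM5, and 0 higher (25.0% called, against 16.9% of all tested genes).

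Of the alpha partners of beta 7, ITGA4 was not detected and ITGAE did not pass the test. ITGA4, the alpha 4 subunit, had 0 counts in all 6 libraries, which allows at most 0.0504 to 0.0600 CPM per library, taking 3 counts as the limit and covering counting error only. ITGAE, the alpha E subunit (Entrez 3682, chr17:3714628-3803766, minus strand), was at 29.1, 31.8 and 27.9 CPM in siNC and 28.9, 30.5 and 26.4 CPM in siSOWAHA. The 2 groups overlapped, and the log2 fold change was -0.05 (SE 0.074; 95% interval -0.21 to 0.11; edgeR adjusted p = 0.734), an interval that leaves out a fall of the size seen for ITGB7. In siNC the transcript levels of ITGAE and ITGB7 per length overlapped, at 4.79 ± 0.31 and 4.18 ± 0.56 FPKM, and in siSOWAHA every ITGAE value was above every ITGB7 value, at 4.58 ± 0.32 and 1.70 ± 0.34 FPKM (SD, n = 3 each). Within the ITGAE locus, HASPIN, a histone kinase gene that lies inside it on the opposite strand, shares 2797 bases with it and rose from 26.1 CPM in siNC to 31.1 in siSOWAHA (log2 fold change 0.25, SE 0.062, edgeR adjusted p = 0.0104). NCBP3, which shares 1609 bases with ITGAE on the same strand, was at 114.4 ± 1.53 and 115.5 ± 2.92 CPM. The libraries keep strand, but whether strand was used in counting is not given in the sources used here, and so reads of such overlapping pairs may not be separated.

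Of the 4 ligand genes of the beta 7 integrins, 2 were high enough to be tested. CDH1, which encodes E-cadherin, the ligand of alpha E beta 7, fell from 106.8 ± 4.56 to 97.4 ± 1.33 CPM (SD, n = 3 each; log2 fold change -0.13, SE 0.042, edgeR adjusted p = 0.0408), a call that was lost under 6 of 15 alternatives. FN1, fibronectin, bound by alpha 4 integrins, was at 28.8 ± 2.03 and 32.1 ± 5.61 CPM, and the adjusted p was 0.357 by edgeR. MADCAM1 had 0 to 11 counts per library and VCAM1 was at 0 in all 6.

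**Figure D1:**
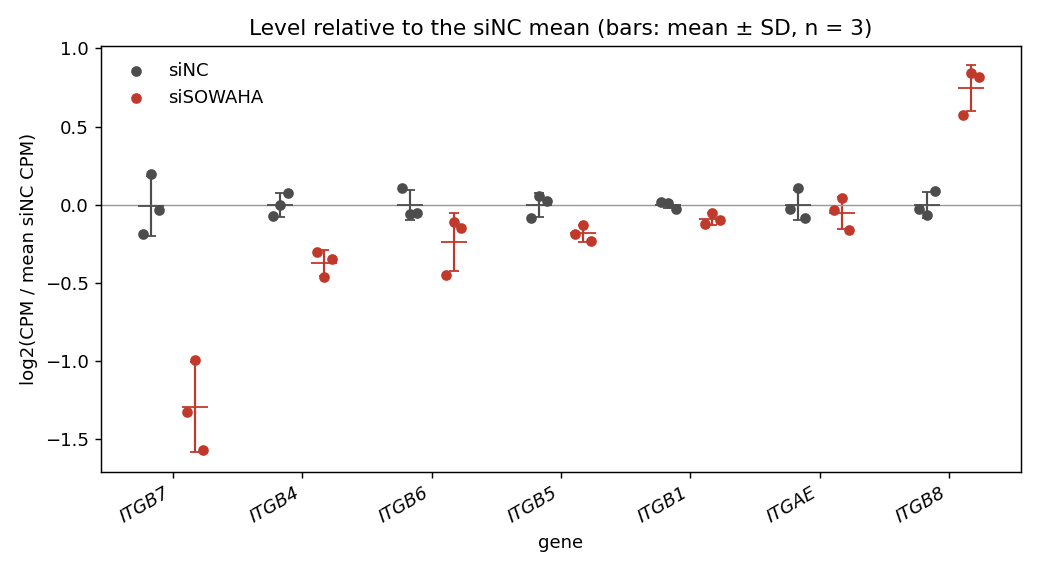
Level of 7 integrin genes in each library, as the log2 ratio of its CPM to the mean siNC CPM, for siNC (grey) and siSOWAHA (red); points are libraries and bars show mean ± SD (n = 3). ITGB7 lies lowest and ITGB8 highest in siSOWAHA, and the groups of ITGAE overlap.

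Besides ITGB7, 7 of the 9 genes were tested, and edgeR's quasi-likelihood test called 1 higher (ITGB8) and 3 lower (ITGB1, ITGB4 and ITGB5) in siSOWAHA, against 9.12% and 7.77% of all tested genes. Their CPM values did not overlap between groups for 5 of the 7, against 33.0% of all tested genes. Differences in expression level between these members and all tested genes were not taken into account in either comparison. An exact two-sided permutation test of 3 against 3 log2 CPM values can reach no p below 0.1, and ITGB1, ITGB4, ITGB5, ITGB6 and ITGB8 each gave p = 0.1.

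Of ITGB5, ITGB6 and ITGB8, which encode beta subunits that pair with alpha v, ITGB8 rose, ITGB5 fell slightly and ITGB6 did not pass the test. Beta 6 and beta 8 integrins are known for binding latent TGF-beta and releasing or presenting its active form, and beta 5 for binding vitronectin. ITGB8 (Entrez 3696, chr7:20329819-20415754, plus strand) was counted 386, 417 and 461 times in siNC and 547, 716 and 690 times in siSOWAHA, or 7.21, 7.00 and 7.82 CPM against 10.9, 13.2 and 12.9 CPM. All siSOWAHA libraries were above all siNC libraries. The mean went from 7.34 ± 0.42 to 12.4 ± 1.22 CPM (SD, n = 3 each), a log2 fold change of 0.75 (SE 0.11, edgeR adjusted p = 2.83e-04). ITGB8-AS1, which lies antisense and shares 1944 bases with it, stayed low, at 0.70 ± 0.46 and 0.61 ± 0.37 CPM.

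ITGB6 (Entrez 3694, chr2:160099671-160200272, minus strand) was at 11.9, 10.6 and 10.6 CPM in siNC and 8.06, 10.2 and 9.97 CPM in siSOWAHA. The groups did not overlap, though siSOWAHA replicate 1 was well below the other 2 libraries of its group. The log2 fold change was -0.23 (SE 0.12; 95% interval -0.47 to 0.02; edgeR adjusted p = 0.212). ITGB5 (Entrez 3693, chr3:124761948-124901418, minus strand) was at 81.5, 90.1 and 88.2 CPM in siNC and at 76.2, 79.2 and 73.6 CPM in siSOWAHA. The highest siSOWAHA library lay just under the lowest siNC library, and the log2 fold change was -0.18 (SE 0.049, edgeR adjusted p = 0.0174); the adjusted p was 0.0828 without siNC replicate 2, 0.0725 without siNC replicate 3 and 0.0823 without siSOWAHA replicate 3. ITGAV, the shared alpha v subunit, was at 42.3 ± 1.53 and 46.8 ± 3.40 CPM (SD, n = 3; log2 fold change 0.14, edgeR adjusted p = 0.115). TGFB1, whose latent form the alpha v integrins bind, was at 75.0 ± 0.87 CPM in siNC and rose to 88.9 ± 4.07 CPM in siSOWAHA (log2 fold change 0.25, SE 0.045, edgeR adjusted p = 0.00139).

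Both ITGB4 and PLEC, its intracellular anchor, fell. ITGB4 (Entrez 3691, chr17:75721339-75757819, plus strand), the beta subunit of the hemidesmosome and a laminin receptor, was at 140.0, 147.2 and 155.4 CPM in siNC and 119.5, 106.9 and 115.8 CPM in siSOWAHA. No value was shared between the groups, and the mean went from 147.6 ± 7.69 to 114.1 ± 6.45 CPM (SD, n = 3 each; log2 fold change -0.37, SE 0.048, edgeR adjusted p = 6.84e-05). PLEC, the plectin that ties beta 4 to keratin filaments, fell from 561 ± 14.1 CPM in siNC to 399 ± 34.2 in siSOWAHA (log2 fold change -0.49, SE 0.054, edgeR adjusted p = 2.61e-04). It was the only called gene among the 6 tested of 7 hemidesmosome and tetraspanin genes (16.7%, against 16.9% of all tested genes), whose median log2 fold change was -0.03. ITGA6, the alpha subunit that pairs with beta 4, was at 231 ± 2.75 and 216 ± 6.71 CPM (log2 fold change -0.10, SE 0.033, edgeR adjusted p = 0.0455), was named after its values were seen, and lost its call under 7 of 15 alternatives. GALK1, which shares 6351 bases with ITGB4 on the opposite strand, was at 25.6 and 28.6 CPM (edgeR adjusted p = 0.159).

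The laminins and other matrix genes that these receptors bind moved in both directions. Of 30 ligand genes of the other integrins, 25 were tested, with 4 higher, 5 lower (36.0% called, against 16.9% of all tested genes) and a median log2 fold change of 0.01. LAMA5, the laminin alpha 5 chain, fell from 172 ± 4.34 CPM in siNC to 143 ± 5.99 in siSOWAHA, a log2 fold change of -0.27 (edgeR adjusted p = 2.02e-04). LAMA3, the alpha chain of the hemidesmosomal laminin, fell from 45.9 ± 1.63 CPM to 37.4 ± 1.14 CPM, a log2 fold change of -0.30 (edgeR adjusted p = 0.00125). The 4 higher genes included TGFB1.

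ITGB1 was by far the highest member and changed least among those called. ITGB1 (Entrez 3688, chr10:32900318-32958230, minus strand), the common beta subunit of the collagen, laminin and fibronectin receptors, was at 467, 465 and 452 CPM in siNC and 423, 445 and 432 CPM in siSOWAHA. The groups lay close but apart, with means of 461 ± 7.62 and 433 ± 11.1 CPM (SD, n = 3 each) and a log2 fold change of -0.09 (SE 0.029, edgeR adjusted p = 0.0412). This call was lost when any 1 library other than siSOWAHA replicate 2 was left out, with adjusted p of 0.152, 0.137 and 0.0585 without siNC replicates 1, 2 and 3 and of 0.112 and 0.137 without siSOWAHA replicates 1 and 3.

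The other alpha subunits, not all of them partners of beta 1, moved both ways. Of 16 other alpha subunit genes, 9 were tested, with 2 higher and 2 lower (44.4% called, against 16.9% of all tested genes), and the median log2 fold change was 0.04. ITGA3, the laminin-binding alpha 3 subunit, was at 22.6, 23.7 and 26.3 CPM in siNC and 17.5, 17.1 and 15.1 CPM in siSOWAHA, with no overlap (log2 fold change -0.55, SE 0.085, edgeR adjusted p = 3.77e-04). ITGA1, a collagen-binding alpha subunit, was at 31.4, 32.5 and 33.7 CPM in siNC and at 41.2, 41.4 and 42.2 CPM in siSOWAHA, again with no overlap (log2 fold change 0.35, SE 0.055, edgeR adjusted p = 4.01e-04). The called genes were these 2, ITGA6 and ITGA2B.

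ITGB2 and ITGB3, the beta subunits of leukocyte and platelet integrins, were near the limit of counting. ITGB2 (Entrez 3689) was counted 14, 66 and 71 times in siNC and 14, 0 and 22 times in siSOWAHA. The groups overlapped, and the log2 fold change of -1.89 had an SE of 0.89 and a 95% interval from -3.86 to 0.08 (edgeR adjusted p = 0.193). The counts varied widely within each group. ITGB2-AS1, its antisense partner, which shares 7781 bases with it, was at 0.73 ± 0.25 and 0.28 ± 0.14 CPM (SD, n = 3; edgeR adjusted p = 0.0821). ITGB3 (Entrez 3690) had 4, 12 and 0 counts in siNC and 0 in every siSOWAHA library, and was too low to be tested. ITGA2B, the platelet partner of beta 3, was counted 12, 14 and 14 times in siNC and 46, 25 and 56 times in siSOWAHA (log2 fold change 1.79, SE 0.50, edgeR adjusted p = 0.0223); leaving out any 1 library other than siSOWAHA replicate 2 ended this call, with adjusted p from 0.059 to 0.124. The platelet genes PF4, PPBP and GP9 were at 0 in all libraries. GP1BA, the other platelet marker listed besides ITGA2B, had 120 to 208 counts per library (edgeR adjusted p = 0.506).

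**Figure D2:**
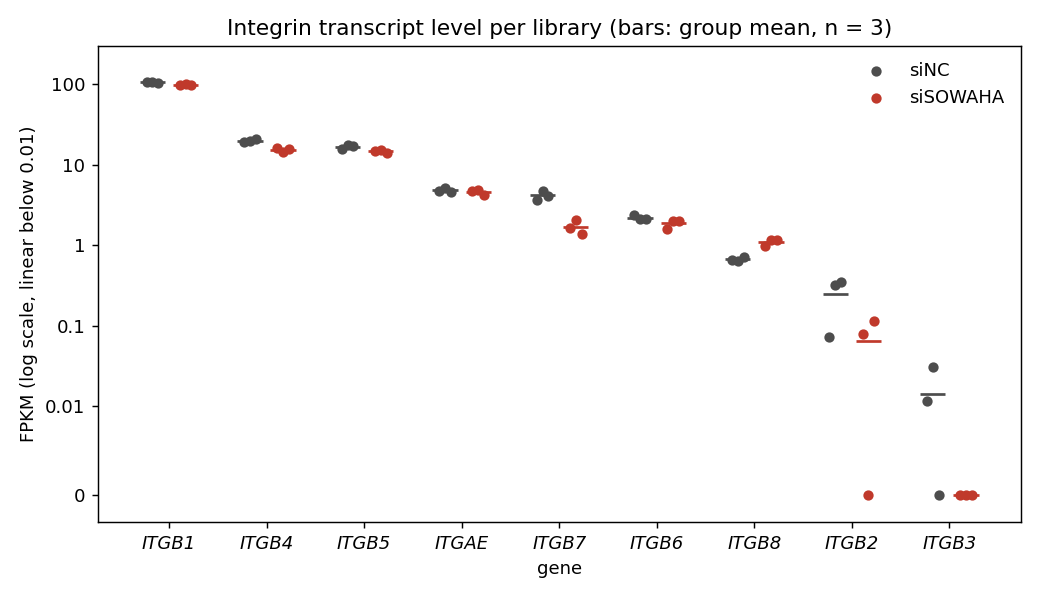
FPKM of 9 integrin genes in each library on a log axis that is linear below 0.01, for siNC (grey) and siSOWAHA (red); short bars are group means (n = 3). ITGB1 stands near 100 FPKM, and ITGB2 and ITGB3 lie below 1 FPKM with values at 0; ITGA4 was at 0 counts and is not drawn.

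Per length, the order of the levels in siNC was ITGB1 at 106.8 ± 1.38 FPKM, ITGB4 at 20.01 ± 1.11, ITGB5 at 16.8 ± 0.90, ITGAE at 4.79 ± 0.31, ITGB7 at 4.18 ± 0.56, ITGB6 at 2.21 ± 0.14, ITGB8 at 0.67 ± 0.042, ITGB2 at 0.25 ± 0.15 and ITGB3 at 0.014 ± 0.015 (SD, n = 3). Neighbours in this order were apart in all libraries except ITGAE and ITGB7. In siSOWAHA the order changed at 1 place, with ITGB6 at 1.86 ± 0.22 FPKM above ITGB7 at 1.70 ± 0.34 in the means; these overlapped, as did ITGB4 at 15.3 ± 0.95 with ITGB5 at 14.6 ± 0.49, and ITGB2 with ITGB3. The 8 beta subunits summed to 150.9 ± 1.74 FPKM in siNC and 133.8 ± 1.76 FPKM in siSOWAHA. ITGB1 made up 70.8% ± 1.28 of this sum in siNC and 74.1% ± 0.54 in siSOWAHA, ITGB4 13.3% ± 0.69 and 11.4% ± 0.86, ITGB7 2.77% ± 0.34 and 1.27% ± 0.24, and ITGB8 0.44% ± 0.029 and 0.83% ± 0.070 (SD, n = 3). The fall of ITGB7 and the rise of ITGB8 thus concerned small shares of the beta subunit transcripts.

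On the deposited FPKM values, the members tested on both scales got the same calls as on counts. Of 12027 genes that reached 1 FPKM in 3 or more libraries, limma-trend on log2(FPKM + 1) called 2494 (20.7%). ITGB1, ITGB4 and ITGB5 were called lower, with limma adjusted p of 0.0248, 0.00242 and 0.0252, and ITGB6 and ITGAE were not called. The difference of ITGB7 was -0.94 on the log2(FPKM + 1) scale, which understates changes of low genes, and ITGB8 was too low on this scale to be tested.

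Genes of proteins that bind integrin tails were called about as often as all tested genes, 16.7% against 16.9%. Of 18 tested genes of talin, kindlin, filamin, tensin and related tail-binding proteins, 1 was higher and 2 were lower, with a median log2 fold change of -0.06. TNS3, a tensin that links beta tails to actin, was at 629.7 ± 15.5 CPM in siNC and rose to 766 ± 21.7 CPM in siSOWAHA (log2 fold change 0.28, SE 0.028, edgeR adjusted p = 6.16e-06). FLNA, a filamin that crosslinks actin and binds beta tails, fell from 735 ± 19.3 CPM in siNC to 671.5 ± 25.2 in siSOWAHA (log2 fold change -0.13, SE 0.031, edgeR adjusted p = 0.00797). Without siNC replicate 3 the adjusted p of FLNA was 0.0549.

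Of 20 tested genes of focal adhesion adaptors and kinases, 2 were higher and 4 lower (30.0% called, against 16.9% of all tested genes), with a median log2 fold change of -0.0049. LPP, a LIM-domain adaptor, rose from 54.3 ± 2.53 CPM to 66.7 ± 1.49 CPM, a log2 fold change of 0.30 (edgeR adjusted p = 3.64e-04). On FPKM, LPP was not called (limma adjusted p = 0.0505). PXN, paxillin, fell from 96.1 ± 1.81 CPM to 83.2 ± 1.33 CPM, a log2 fold change of -0.21 (edgeR adjusted p = 0.00231). PARVA, parvin alpha, fell from 120.4 ± 2.47 CPM to 105.1 ± 2.65 CPM, a log2 fold change of -0.20 (edgeR adjusted p = 0.00242). Over the 6 lists of integrin-related genes together, 80 of 100 genes were tested, with 9 higher, 15 lower and a median log2 fold change of -0.0026. They held 30.0% called genes against 16.9% of all tested genes; the difference in expression level between these genes and all tested genes was not taken into account.

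**Figure D3:**
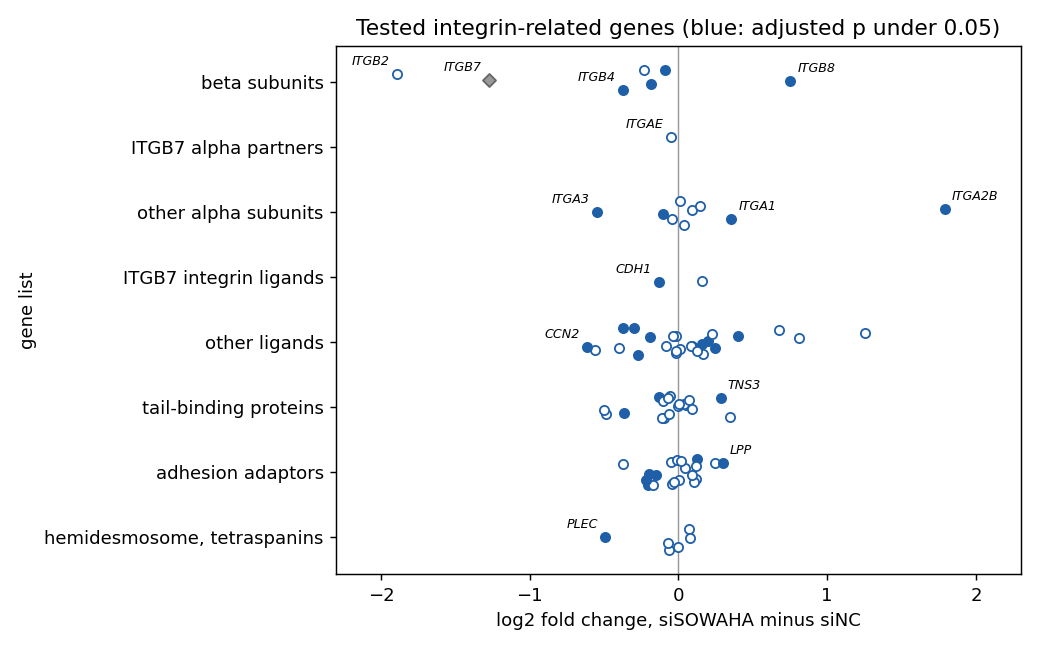
Log2 fold change, siSOWAHA minus siNC, of each tested gene in the integrin family and 6 related lists; blue points had an edgeR adjusted p under 0.05, open points did not, and the grey diamond is ITGB7, given without a test. ITGB8 and ITGB7 stand at 0.75 and -1.28, and the lists scatter on both sides of 0.

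The genes around ITGB7 had smaller fold changes. ZNF740, a zinc finger gene that overlaps ITGB7 by 3825 bases on the opposite strand, was at 82.7 ± 4.05 CPM in siNC and 80.1 ± 2.54 CPM in siSOWAHA (SD, n = 3), with a log2 fold change of -0.05 (SE 0.047, edgeR adjusted p = 0.591). Per length it was at 7.89 ± 0.41 and 7.56 ± 0.26 FPKM, above ITGB7 in every library. CSAD, an enzyme gene of taurine synthesis 9654 bases away on the side of lower coordinates, fell from 21.0 ± 1.64 CPM in siNC to 16.7 ± 0.67 in siSOWAHA (log2 fold change -0.33, SE 0.083, edgeR adjusted p = 0.0129). RARG, a retinoic acid receptor gene 3193 bases away on the other side, was at 27.4 ± 1.61 and 24.1 ± 0.90 CPM (log2 fold change -0.19, SE 0.071, edgeR adjusted p = 0.0878), and on FPKM its adjusted p was 0.0455 by limma.

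The genes whose pattern was most like that of ITGB7 were found by the root mean square difference of log2 CPM, centred on the siNC mean, over the 6 libraries and among the 11309 tested genes whose mean level was 5 CPM or more. They were GADD45B, a stress-response gene, with a difference of 0.13, AMOTL2, an angiomotin family gene (0.24), EMP1, an epithelial membrane protein gene (0.26), KRT15, a keratin gene (0.32), and CHKB, choline kinase beta (0.32). GADD45B was at 10.6, 12.7 and 11.1 CPM in siNC and 5.06, 5.93 and 3.22 CPM in siSOWAHA. As for ITGB7, replicate 2 was the highest library of each group and replicate 3 the lowest of the siSOWAHA group. AMOTL2 was at 17.2 ± 0.94 and 8.49 ± 0.59 CPM, and EMP1 at 26.4 ± 1.65 and 12.7 ± 0.53 CPM (SD, n = 3 each). These genes were chosen for this likeness, so their values are a description.

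**Figure D4:**
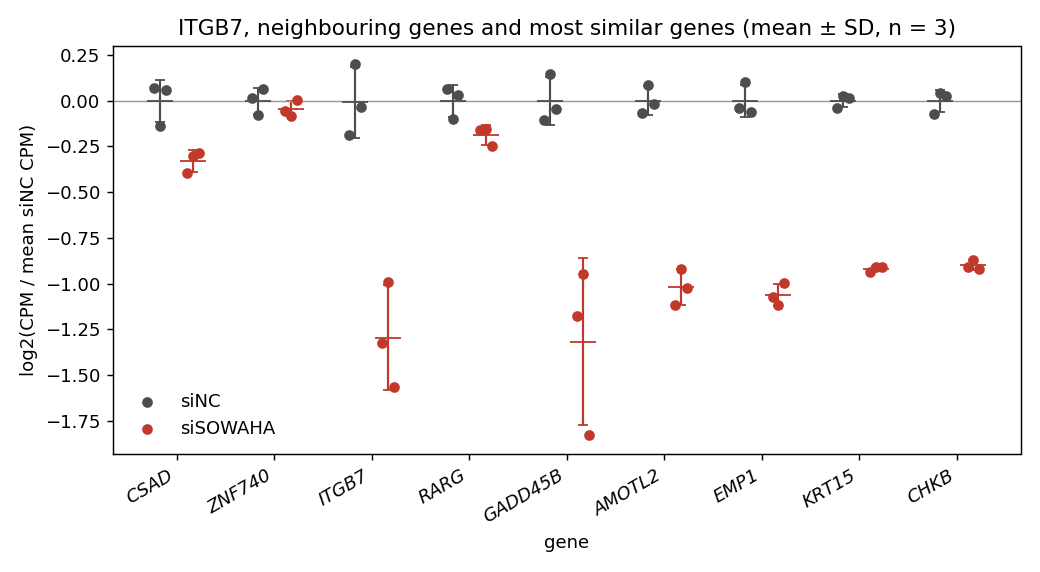
Log2 ratio of CPM to the mean siNC CPM in each library for ITGB7, its overlapping and neighbouring genes (CSAD, ZNF740, RARG) and the 5 genes most like it, for siNC (grey) and siSOWAHA (red); bars show mean ± SD (n = 3). In siSOWAHA, ITGB7 and the 5 similar genes lie well below CSAD, ZNF740 and RARG, with no overlap between them.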

How the data were processed

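SW620 cells were harvested at 72 h; per the labels' protocols, poly(A) RNA with an integrity number above 7.0 went into dUTP-marked, strand-specific libraries read as pairs of 150 nt. Groups and replicate numbers came from the sample titles. The submitters' processing notes name cutadapt 1.9, FastQC and the build GRCh38. Not given in the sources used here were the alignment and counting tools, the gene models and the use of strand. Raw counts were deposited for 39554 genes, 14652 of them at 0 in all libraries. They also deposited FPKM values for 24901 genes, with identical counts. Libraries held 49937395 to 59474396 counts, with a common biological coefficient of variation of 0.105. Replicates differed by more than sampling noise (chi-square per degree of freedom 8.09 to 14.8).

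The two-sided test of the counts was edgeR 4.0.16's robust quasi-likelihood F test (R 4.3.3), after filterByExpr and TMM scaling, with p-values adjusted by Benjamini-Hochberg over 17693 genes and called at 0.05. FPKM values were tested with limma 3.58.1 on log2(FPKM + 1). The steps were tested on simulated data. The members, gene lists, tests and naming rule were chosen with earlier results of these data known, and ITGB7 gets no test. Named were all members, up to 3 called genes per list with the smallest adjusted p, overlapping and nearest genes of ITGB7 and the 5 genes most like it. A few results that the rule covers are not reported here, and list genes without a row in the table are not analysed here. Promoters come from RefSeq GRCh38.p14. Alternatives were RLE, upper-quartile and library-total scaling, other filters, DESeq2 1.42.0, voom, thinning to the smallest total, a replicate block, another FPKM pseudocount and leaving out each library.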

Additional observations from a re-analysis of the deposited data

How the results depend on the processing

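The log2 fold change of ITGB7 lay between -1.44 and -1.15 under 15 alternatives, and ITGB4 and ITGB8 kept direction and call in all 15, with adjusted p of at most 0.00119 and 0.0037. Leaving out 1 library gave 1978 to 2678 called genes (1978 without siNC replicate 3), 2 to 4 called members besides ITGB7 and 1579 to 2163 genes called on FPKM. With no filter on low FPKM, 1369 genes were called. Under 15 alternatives, 17 to 27 genes of the 6 lists were called. Of the calls besides members, CDH1 lost its own without siNC replicate 2 (adjusted p = 0.0628), siNC replicate 3 (0.193) and each siSOWAHA replicate (0.0566, 0.114 and 0.101), all by edgeR; the cause was not tested. On FPKM, ITGB1 and ITGB5 each lost their call under 5 of 9 alternatives (limma adjusted p up to 0.0793 and 0.0838). ITGAE, never called, ranged from -0.098 to 0.006. Upper-quartile scaling and library totals gave 46.0% and 45.9% higher calls, against 54%, and moved the median gene by -0.015 and -0.017.

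No pairing of the libraries by replicate number was visible: deviations of same-numbered libraries correlated at -0.068, 0.011 and -0.024. With 3 libraries per group, this cannot settle whether they were paired. With the replicate number as a block, edgeR called 2599 genes, 3 members besides ITGB7 and 21 list genes, and limma 2062 genes on FPKM; ITGB7 was at -1.28. ITGB1, CDH1, ITGA2B and ITGA6 lost their calls in that fit (edgeR adjusted p = 0.0539, 0.0548, 0.0559 and 0.0544). Few counts limit what can be said of ITGB2, ITGB3, ITGA2B and ITGA4, each with fewer than 100 in every library.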
